A study of Homo sapiens with 12 samples.

Results

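Genes on a stretch of the long arm of human chromosome 3 were examined in BEAS-2B cells, an immortalised line of bronchial epithelial cells, grown with and without an extract of kava (Piper methysticum). Genes were selected on position and level. A gene belonged to the region when its start in the deposited count table lay from chr3:129315392 to chr3:188154057 (hg38) and its level averaged at least 1 TPM over the 6 kava and vehicle libraries. TPM is a transcript's share of a library per 1000000 transcripts, with length taken into account. Of 579 genes of the count table that start there, 566 were also in the TPM table, 359 of these were under 1 TPM and 207 were not. A set of 15 named genes was left out, 14 of them at or above the minimum, which gave 193 members of the 13866 genes tested. The members comprised 159 protein-coding genes, 22 long noncoding RNAs, 10 processed pseudogenes and 1 small nucleolar RNA, with 1 further entry of another type. The stretch itself had been chosen by the measured difference in TPM between kava and vehicle libraries, so all kava values of its genes, and the calls of a fit across all genes that are counted below, are given as a description and support nothing.

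The 12 libraries of polyadenylated RNA fell into 4 groups of 3. All cells were wild type by their labels and had been kept for 20 weeks in 0.25 µM K2Cr2O7, a source of hexavalent chromium. Kava cells received 25 µg/ml kava over the same weeks, and vehicle cells received 0.05% DMSO. SNRPA1 siRNA cells and control siRNA cells came from the chromate and DMSO exposure. They received either a pool of siRNAs to SNRPA1 or a siRNA without a target, each at 100 nM, and RNA was taken 48 h later. No label states that replicates were grown apart, so the p-values measure the spread between these libraries. Every group is 1 cell line, and every group had chromate.

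The long arm of chromosome 3 carries genes of many unrelated functions, among them PIK3CA, which encodes a catalytic subunit of phosphoinositide 3-kinase, PRKCI, which encodes an atypical protein kinase C, and a cluster of translation initiation factors. Its distal part is known as a frequent site of chromosomal gain in squamous carcinomas of the lung. The libraries measured RNA, and in bulk RNA fewer cells with a transcript and less transcript per cell cannot be told apart.

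Promoter sequences are shown for the 3 highest and the 3 lowest members by their difference with kava, among those with a mean of at least 5 TPM that the RefSeq table holds, to set genes at both ends of the range beside each other. Each is the stretch of 250 bases just before the RefSeq start (GRCh38.p14), read 5′ to 3′ on the gene's own strand. Capitals mark matches, on either strand, to the motifs searched, and the first listed start was used for B3GALNT1 and BCL6.
B3GNT5: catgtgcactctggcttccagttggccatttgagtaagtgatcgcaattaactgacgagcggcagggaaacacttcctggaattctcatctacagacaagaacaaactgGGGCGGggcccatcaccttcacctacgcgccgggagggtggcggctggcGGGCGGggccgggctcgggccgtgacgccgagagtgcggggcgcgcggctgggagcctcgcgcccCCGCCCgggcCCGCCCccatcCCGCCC
B3GALNT1: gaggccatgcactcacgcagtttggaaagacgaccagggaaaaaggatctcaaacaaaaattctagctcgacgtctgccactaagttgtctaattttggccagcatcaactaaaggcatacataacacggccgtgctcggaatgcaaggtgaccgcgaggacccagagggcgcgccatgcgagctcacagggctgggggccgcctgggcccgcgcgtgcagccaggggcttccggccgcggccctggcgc
NCEH1: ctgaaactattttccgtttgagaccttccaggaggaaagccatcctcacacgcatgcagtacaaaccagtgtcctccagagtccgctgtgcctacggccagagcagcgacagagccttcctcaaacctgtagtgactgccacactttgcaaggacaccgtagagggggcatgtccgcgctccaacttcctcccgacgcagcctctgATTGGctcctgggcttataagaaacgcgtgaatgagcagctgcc
PTX3: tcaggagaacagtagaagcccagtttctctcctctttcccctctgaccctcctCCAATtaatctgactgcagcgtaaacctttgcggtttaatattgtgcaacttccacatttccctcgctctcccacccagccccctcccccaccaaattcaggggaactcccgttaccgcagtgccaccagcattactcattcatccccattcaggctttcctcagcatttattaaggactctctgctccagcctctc
SLC25A36: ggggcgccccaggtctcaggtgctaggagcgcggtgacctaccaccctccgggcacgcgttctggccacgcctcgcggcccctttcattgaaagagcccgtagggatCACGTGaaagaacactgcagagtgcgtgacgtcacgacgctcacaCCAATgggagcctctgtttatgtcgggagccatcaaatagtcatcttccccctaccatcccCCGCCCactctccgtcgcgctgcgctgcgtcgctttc
BCL6: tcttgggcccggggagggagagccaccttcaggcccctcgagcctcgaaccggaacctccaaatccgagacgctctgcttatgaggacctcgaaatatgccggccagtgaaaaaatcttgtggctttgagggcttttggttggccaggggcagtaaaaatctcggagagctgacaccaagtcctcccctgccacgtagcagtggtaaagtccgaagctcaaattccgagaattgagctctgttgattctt
LAMP3 and ETV5, which also belong among the highest, are named only, as are RPL22P1, PET100P1, RPL23AP42, GK5, RPL4P4, SETP14 and ACAD11, which were lower than SLC25A36 and BCL6. The B3GNT5 window lies at chr3:183253003-183253252 on the plus strand, that of B3GALNT1 at chr3:161105350-161105599 on the minus strand and that of NCEH1 at chr3:172711068-172711317 on the minus strand. The PTX3 window lies at chr3:157436600-157436849 and the SLC25A36 window at chr3:140941586-140941835, both on the plus strand, and the BCL6 window at chr3:187745469-187745718 on the minus strand. The B3GALNT1, NCEH1, SLC25A36 and BCL6 windows lie at least partly within the gene as the count table bounds it.

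The motifs were the TATA box (TATAAA), the CCAAT box (CCAAT), the GC box (GGGCGG), the AP-1 site (TGANTCA), the antioxidant response element (TGACNNNGC) and the E-box (CACGTG), each searched on both strands. The B3GNT5 window held 5 GC boxes. The NCEH1 and PTX3 windows held 1 CCAAT box each, the SLC25A36 window held 1 CCAAT box, 1 GC box and 1 E-box, and the B3GALNT1 and BCL6 windows held none of the motifs. RefSeq windows matched 150 of the 193 members by symbol, and a GC box stood in 64.0% of these, against 42.3% of all 27305 promoters and 68.5% of the promoters of 10056 other tested genes. A CCAAT box stood in 35.3% of member windows, 33.0% of all promoters and 35.4% of those of the other tested genes, and an antioxidant response element in 12.7%, 11.0% and 12.3% of the same sets. The AP-1 site was in 5.33% of member windows, 6.60% of all promoters and 3.78% of those of the other tested genes. The TATA box was in 8.67%, 11.1% and 5.12% of these sets, and the E-box in 8.67%, 6.49% and 8.95%. For all of these motifs but the antioxidant response element, the members' share lay between those of the comparison sets. Median GC content was 63.2% in member windows, 58.0% in all promoters and 65.2% in those of the other tested genes. A match is a description of the letters and not of binding.

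The siRNA libraries held 55003534 to 65385258 counted reads, and the depth of the TPM libraries is unknown. The targeted gene SNRPA1, which encodes a U2 snRNP protein, stood at 21.4, 21.0 and 23.7 CPM (counts per 1000000 after TMM scaling) with SNRPA1 siRNA and at 67.6, 58.9 and 60.2 CPM with control siRNA. Control siRNA replicate 1 stood apart, with a correlation over genes of 0.973 and 0.979 with its 2 partners. These partners correlated at 0.992 with each other. The members' counts of calls and median change in the knockdown are therefore given with and without control siRNA replicate 1. Other knockdown values include that replicate unless stated otherwise. Of 9 epithelial markers, 6 averaged at least 1 TPM and summed to 1313 to 1374 TPM with kava and 1251 to 1305 TPM with vehicle. KRT5, KRT14 and CDH1, which define basal and polarised epithelium, were near 0 in all libraries. The list's keratins differed in both directions, and of those that averaged at least 1 TPM only KRT7 was higher with kava. KRT8 was 494 to 518 TPM with kava and 566 to 593 TPM with vehicle. KRT18 was 395 to 396 TPM with kava and 418 to 435 TPM with vehicle. KRT7 was 385 to 422 TPM with kava and 189 to 194 TPM with vehicle, KRT17 was 33.5 to 37.5 TPM with kava and 53.8 to 61.1 TPM with vehicle, and KRT19 was 0.672 to 0.734 TPM with kava and 22.2 to 24.2 TPM with vehicle. In the siRNA table the list summed to 451 to 488 FPKM with SNRPA1 siRNA and 386 to 490 FPKM with control siRNA, and within it KRT17 was 32.3 to 40.9 FPKM with SNRPA1 siRNA and 19.3 to 26.7 FPKM with control siRNA. The 5 fibroblast markers summed to 407 to 434 TPM with kava and 388 to 418 TPM with vehicle, nearly all of it THY1 and PDGFRB, with COL3A1 and DCN near 0. None of 4 airway differentiation markers averaged 1 TPM, nor did any of 4 endothelial markers, which summed to 0.364 to 0.429 TPM with kava and 1.22 to 1.51 TPM with vehicle. The blood list summed to 24.8 to 26.7 TPM with kava and 12.5 to 13.9 TPM with vehicle, nearly all of it CD68, with LYZ near 0, and to 4.41 to 5.59 FPKM with SNRPA1 siRNA and 8.56 to 10.1 FPKM with control siRNA. The part of these marker differences in the values below was not tested.

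Most genes of the region were modestly higher with kava. The median log2 fold change of the 193 members, kava minus vehicle on log2(TPM + 1), was 0.29, with quartiles of 0.15 and 0.44 and a range of -1.26 to 2.17, and 166 of the 193 lay above 0. Over all 13866 tested genes the median was -0.01. The limma fit across all genes, at an adjusted p under 0.05, called 119 members higher and 1 lower, beside a background of 16.3% of all tested genes called higher and 15.6% called lower. Every kava library exceeded every vehicle library for 131 members and lay under every vehicle library for 3 (PTX3, NEK11 and CHST2), beside 22.6% and 24.6% of all tested genes. Because the rule drew on this contrast, nothing is read from these counts.

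The size of the difference was narrow for most members. Among the 144 members with a mean of at least 5 TPM, the ratio of mean TPM, kava over vehicle, had a median of 1.25, quartiles of 1.14 and 1.37, and a range of 0.992 to 1.47 once the lowest and highest 10% were set aside. The ratio reached 1.1 in 115 of these members (79.9%), 1.5 in 13 (9.03%) and 2 in 4 (2.78%). Over the 10477 tested genes at that level the median ratio was 0.988. Of them, 24.3% reached 1.1, 3.22% reached 1.5 and 0.878% reached 2. Protein-coding members had a median log2 fold change of 0.31, and the 34 other members one of 0.15. The median was 0.22 for members at 1 to 5 TPM, 0.24 at 5 to 20 TPM, 0.28 at 20 to 50 TPM and 0.38 above 50 TPM. The pseudocount of 1 TPM understates the fold change of low genes. Across members, the change and the log2 vehicle level had a Spearman rho of 0.09 and a Pearson r of -0.08 (n = 193 genes that share the 6 libraries).

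The members' summed level differed little among libraries of a group. It was 9594, 9632 and 9639 TPM in kava replicates 1 to 3 and 7538, 7512 and 7559 TPM in vehicle replicates 1 to 3. These sums were 0.962% ± 0.00244 of each kava library and 0.754% ± 0.00235 of each vehicle library (SD, n = 3 each), and the groups did not overlap. Set against the mean of the vehicle libraries, the median member difference on the log2 scale was 0.28, 0.32 and 0.29 in kava replicates 1 to 3, and at most 0.0024 in size in the vehicle libraries.

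**Figure D1:**
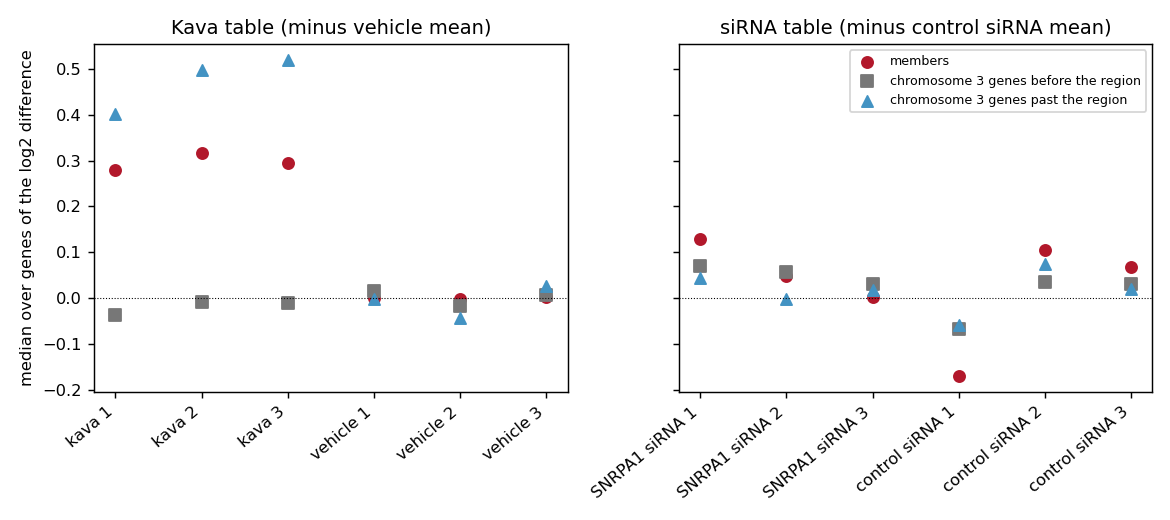
Median over genes of the log2 difference of each library from the mean of its comparison group, for the members (circles), for chromosome 3 genes before the region (squares) and for those past it (triangles), in the kava table (left) and the siRNA table (right). The 3 kava libraries sit at 0.28 to 0.32 for members, apart from the vehicle libraries, whereas SNRPA1 siRNA and control siRNA libraries overlap and control siRNA replicate 1 is the lowest at -0.17.

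Along the chromosome the difference began near the first member and ran to the end of the arm. The stretch was chosen by this contrast, so higher values inside it than before it follow from that choice. In consecutive windows of 25 tested genes in order of start, the median change was 0.18 to 0.42 in the 7 windows inside the region, -0.12 to 0.10 in the 20 windows before it and 0.43 in the 1 window past it. The 511 tested genes before the region had a median of -0.02, with 62 called higher (12.1%) and 81 lower. Over all tested genes 16.3% were called higher and 15.6% lower. The 51 genes past the region had a median of 0.45, with 42 called higher (82.4%) and 0 lower. The region's far limit is thus not where the difference ended. The 14 genes left out by name had a median of 0.34, with 10 called higher (71.4%) and 0 lower. Medians over whole other chromosomes, which are not chosen stretches, lay from -0.28 on chromosome 14 to 0.21 on chromosome 5. That of all 769 tested chromosome 3 genes was 0.07.

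Within the region the difference was larger toward the far end. By steps of 10 Mb from the first member's start, the median change was 0.23 (45 members), 0.22 (24), 0.24 (35), 0.20 (12), 0.31 (24) and 0.40 (53). The rank correlation between the change and the distance from the first start was 0.25, and Pearson's r was 0.21 (193 genes, which share the 6 libraries).

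**Figure D2:**
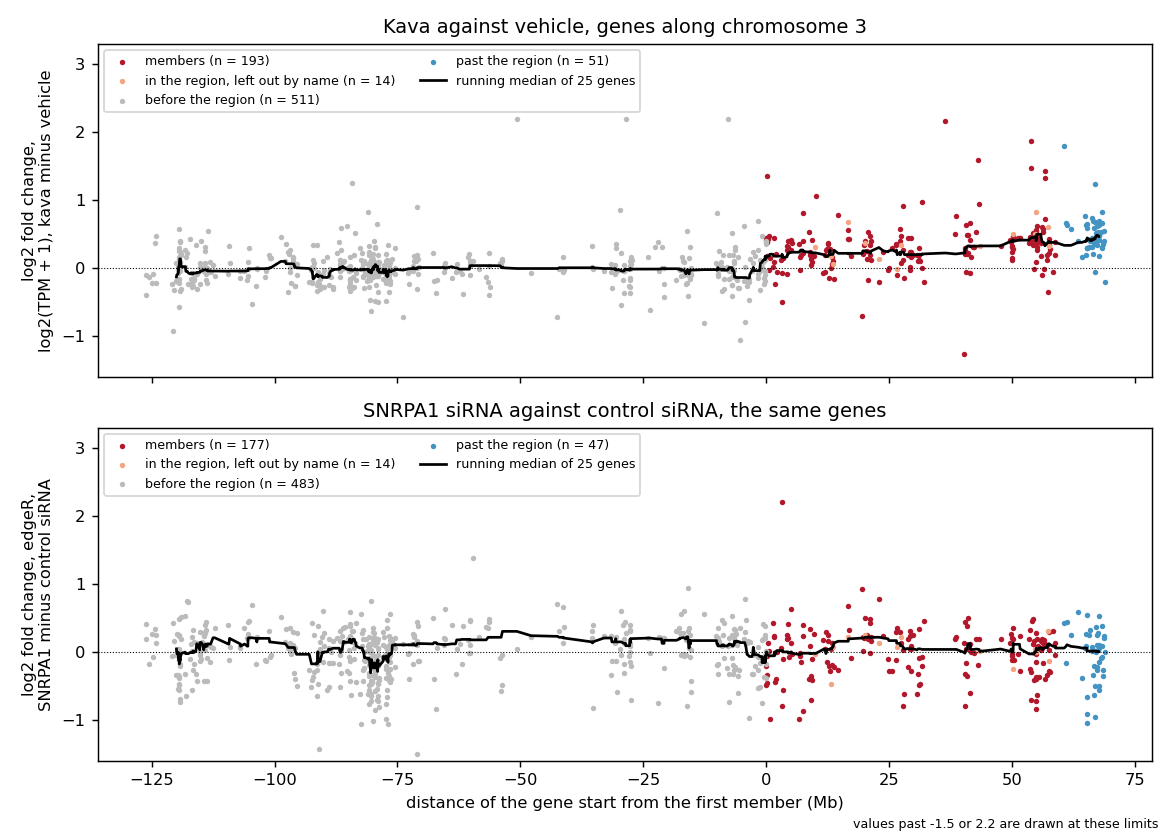
Log2 fold change of each tested chromosome 3 gene against the distance of its start from the first member's start in megabases, with kava over vehicle above and SNRPA1 siRNA over control siRNA below, and a running median of 25 genes (black line). With kava the line leaves 0 close to the first member and stays above it to the end of the arm, and with SNRPA1 siRNA no such step is drawn. The stretch was chosen by the kava contrast and not by the knockdown, so the kava step at the first member follows from that choice.

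The ends of the stretch were examined gene by gene. Just before it, the splicing factor ISY1 and the nucleic acid-binding protein CNBP had log2 fold changes of -0.10 and -0.19. The next genes, COPG1, which encodes a coat protein of Golgi vesicles, HMCES, which encodes a sensor of abasic DNA sites, and the linker histone gene H1-10, had changes of 0.36, 0.39 and 0.41, although they lie outside. The first members were H1-10-AS1 at 0.42, a long noncoding RNA listed as ENSG00000290993 at 0.44, and the small nucleolar RNA SNORA7B at 1.35. SNORA7B was listed at 0, 3.96 and 2.36 TPM with kava and at 0 in all vehicle libraries, so it met the minimum on level only through kava libraries. It was not called, and it lies within ENSG00000290993 on the same strand, so their reads may not be told apart. H1-10-AS1 is antisense to H1-10 and overlaps it, and reads of such a pair may not be told apart.

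At the far end the last members were the transcriptional repressor BCL6 at -0.06, LPP-AS2 at 0.20 and the focal adhesion protein LPP at 0.38. The 3 genes past them were P3H2, a collagen prolyl 3-hydroxylase, at 1.81, the tight junction claudin CLDN1 at 0.67 and the interleukin-1 receptor accessory protein IL1RAP at 0.64. P3H2 stood at 45.0, 44.0 and 49.5 TPM with kava and at 11.7, 12.0 and 13.8 TPM with vehicle. At the limit on level, PPM1L (mean 0.901 TPM) and LINC02015 (0.988 TPM) fell short, and ENSG00000272990 (1.00 TPM) and LINC00881 (1.05 TPM) were taken in. ENSG00000272990 averaged 1.44 TPM with kava and 0.566 TPM with vehicle, and LINC00881 averaged 1.15 and 0.954 TPM. Both thus met the minimum only through the kava libraries.

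A few members had differences far above the rest. LAMP3, a lysosomal membrane protein (ENSG00000078081, chr3:183122215-183162882, minus strand), stood at 8.45, 8.66 and 8.69 TPM with kava and at 1.80, 1.40 and 1.64 TPM with vehicle. Its mean was 5.33 times that of vehicle, with a log2 fold change of 1.88 ± 0.0826 (SE). B3GNT5, a glycosyltransferase that starts the lacto-series glycolipids (ENSG00000176597, chr3:183253253-183298504, plus strand), stood at 15.1, 14.5 and 14.2 TPM with kava and at 4.66, 4.95 and 4.22 TPM with vehicle. These neighbouring genes had the 2 largest changes among members with a mean of at least 5 TPM, and in both every kava library was well above every vehicle library.

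ETV5, an ETS-family transcription factor downstream of receptor tyrosine kinase signalling (ENSG00000244405, chr3:186046314-186110318, minus strand), stood at 17.6, 18.9 and 17.9 TPM with kava and at 6.78, 6.74 and 6.38 TPM with vehicle. B3GALNT1, the enzyme that makes the glycolipid globoside (ENSG00000169255, chr3:161083883-161105376, minus strand), stood at 20.5, 22.1 and 22.1 TPM with kava and at 10.6, 10.5 and 10.3 TPM with vehicle. Its neighbour NMD3, an export adaptor of the large ribosomal subunit, stood at 52.3, 50.1 and 46.9 TPM with kava and at 49.7, 51.4 and 47.2 TPM with vehicle. The B3GALNT1 mean was 2.06 times that of vehicle, while the NMD3 groups overlapped.

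NCEH1, a hydrolase of neutral cholesterol esters (ENSG00000144959, chr3:172630249-172711218, minus strand), stood at 95.1, 94.4 and 91.9 TPM with kava and at 47.9, 48.5 and 48.8 TPM with vehicle. Its libraries varied little, and its log2 fold change was 0.94 ± 0.0352 (SE). The other highest members were the transporter-like SLC35G2 at a log2 fold change of 0.81, the Golgi membrane protein GOLIM4 at 0.77, the second eIF5A gene EIF5A2 at 0.67, the translocation protein SEC62 at 0.64 and FAM131A at 0.62. EIF5A2 was the most variable of them, at 29.2, 42.7 and 37.0 TPM with kava and 26.5, 16.4 and 24.9 TPM with vehicle.

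Among members with a mean under 5 TPM, 3 with large changes were named after their values were seen. BCHE, which encodes butyrylcholinesterase, stood at 3.55, 3.58 and 3.53 TPM with kava and was listed at 0, 0.0189 and 0.0176 TPM with vehicle, a change of 2.17 on log2(TPM + 1). TNFSF10, which encodes the death ligand TRAIL, stood at 3.94, 4.75 and 4.27 TPM with kava and 0.751, 0.843 and 0.686 TPM with vehicle. DGKG, a diacylglycerol kinase, stood at 8.81, 5.82 and 7.89 TPM with kava and 2.00, 1.96 and 2.36 TPM with vehicle. BCHE was thus near 0 and TNFSF10 under 1 TPM without kava, so both met the minimum of 1 TPM only through the kava libraries. DGKG and ETV5 overlap on the same strand, so that reads in the overlap may be assigned to either.

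Few members were lower with kava. PTX3, a secreted pattern recognition protein, stood at 59.6, 60.0 and 57.3 TPM with kava and at 65.8, 65.0 and 64.0 TPM with vehicle, so the groups did not overlap although the log2 fold change was only -0.14. RPL22P1 was listed at 0, 4.05 and 5.41 TPM with kava and at 9.75, 5.31 and 5.57 TPM with vehicle, and its change of -1.26 rests in part on the library listed at 0. It is a processed pseudogene, as are PET100P1 (-0.34), RPL23AP42 (-0.19), RPL4P4 (-0.10) and SETP14 (-0.09), whose reads may be shared with their parent genes. The other lowest members were the glycerol kinase GK5 at -0.14, the acyl-CoA dehydrogenase ACAD11 at -0.07, the mitochondrial nucleotide carrier SLC25A36 at -0.07 and BCL6 at -0.06. In each of these 4 the kava and vehicle libraries overlapped. Outside that list, the mast cell carboxypeptidase CPA3 stood at 1.72, 1.61 and 2.96 TPM with kava and 4.08, 5.42 and 2.71 TPM with vehicle.

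**Figure D3:**
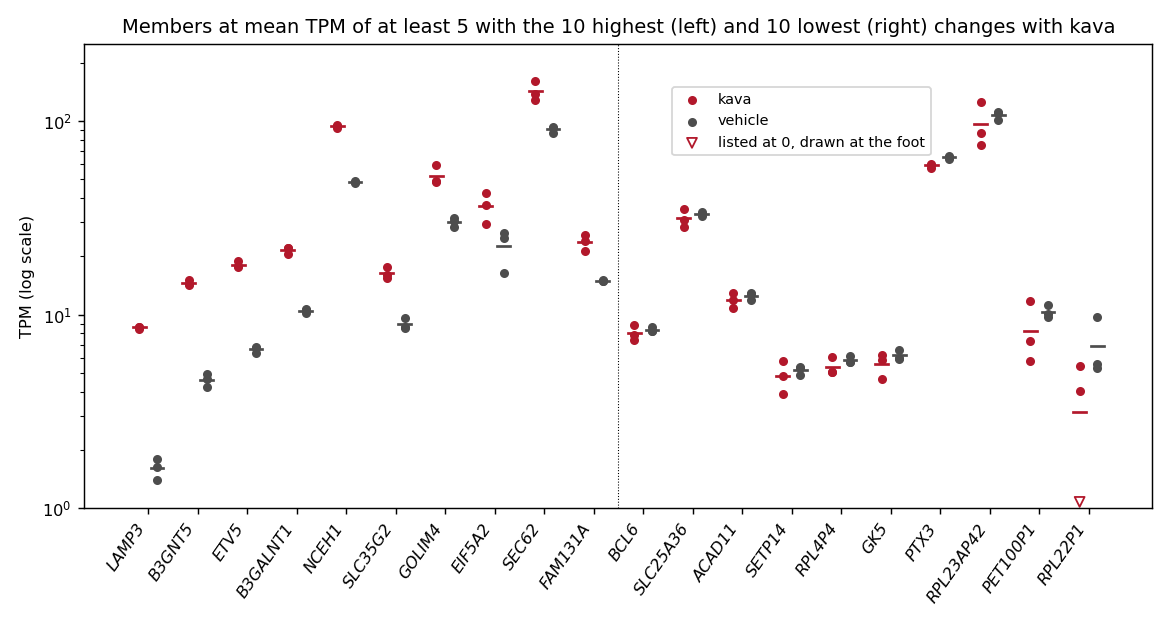
TPM on a log scale in each kava and vehicle library for the members with the 10 highest (left) and 10 lowest (right) log2 fold changes among those with a mean of at least 5 TPM, with a line at each group's mean. Every kava point of the left set lies above that gene's vehicle points, whereas on the right the groups overlap except in PTX3, and 1 RPL22P1 library is listed at 0.

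The 5 members with the highest levels were all higher with kava by less than 1.5 times. AP2M1, the medium subunit of the clathrin adaptor AP-2, stood at 783, 721 and 689 TPM with kava and at 499, 521 and 480 TPM with vehicle. EIF4A2, an RNA helicase of translation initiation, stood at 487, 494 and 485 TPM with kava and at 380, 391 and 388 TPM with vehicle. EIF4G1, the scaffold of the cap-binding complex, stood at 415, 414 and 413 TPM with kava and at 298, 293 and 286 TPM with vehicle. In these 3 genes and in CLDN11, a tight junction claudin (0.49), and SSR3, a subunit of the translocon-associated complex (0.40), the groups did not overlap. PIK3CA, named after its values were seen, stood at 17.8, 18.6 and 18.5 TPM with kava and at 13.1, 13.7 and 14.2 TPM with vehicle.

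Members were then ordered by role in 7 lists, which hold 106 of the 193 members and were drawn up with earlier results of these data known. Calls in these lists are a description, beside 61.7% of all members and 16.3% of all tested genes called higher. Among 22 kinases and signalling proteins the median log2 fold change was 0.31, and 16 were called higher and 0 lower. PDCD10, an adaptor of the STRIPAK kinase complex, was at 0.51, the Wnt transducer DVL3 at 0.51, the angiomotin-like scaffold AMOTL2 at 0.41 and the Wnt coreceptor RYK at 0.25. PRKCI was at 0.20 and was not called, with 34.2, 33.4 and 34.3 TPM with kava and 27.9, 27.0 and 33.6 TPM with vehicle. STAG1, at 0.19, is counted in this list although it is a cohesin subunit and not a kinase. It was also placed in the list of mitotic genes.

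Of 19 transcription and chromatin factors, 14 were called higher and 0 lower, with a median of 0.31. The RNA polymerase subunit POLR2H was at 0.31, ACTL6A, an actin-related subunit of BAF remodelling complexes, at 0.28, and the zinc finger protein ZNF639 at 0.33. The cyclin CCNL1, linked to splicing, was at 0.27, the methyl-CpG-binding ZBTB38 at 0.20 and the checkpoint scaffold TOPBP1 at 0.27. POLR2H varied little, at 151, 150 and 151 TPM with kava and 121, 126 and 117 TPM with vehicle.

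Of 15 translation and RNA-binding factors, 12 were called higher and 0 lower, and the median was 0.41. FXR1, an RNA-binding relative of FMRP, stood at 239, 248 and 248 TPM with kava and at 179, 176 and 185 TPM with vehicle, and the ribosomal protein paralog RPL22L1 was at a log2 fold change of 0.42. TRA2B, a splicing regulator, stood at 267, 273 and 263 TPM with kava and at 261, 275 and 276 TPM with vehicle. MRPL3, a mitochondrial ribosomal protein, stood at 167, 160 and 158 TPM with kava and at 166, 168 and 170 TPM with vehicle. TRA2B and MRPL3 are highly expressed members whose groups overlapped, unlike FXR1.

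Of 22 proteins of the secretory pathway, membrane and transport, 20 were called higher and 0 lower, with a median of 0.40. The sodium pump subunit ATP1B3 was at 0.37, the endoplasmic reticulum selenoprotein SELENOT at 0.40 and the Golgi calcium pump ATP2C1 at 0.45. SEC62 stood at 128, 139 and 161 TPM with kava and at 92.9, 86.9 and 92.5 TPM with vehicle.

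The other 3 lists had medians of 0.20, 0.27 and 0.18. Of 15 mitotic, genome maintenance and ubiquitin factors, 9 were called higher and 0 lower, among them the SUMO protease SENP2 at 0.58, the neddylation factor DCUN1D1 at 0.42, the anaphase-promoting complex subunit ANAPC13 at 0.28 and the condensin subunit SMC4 at 0.20. Of 10 mitochondrial proteins, 7 were called higher and 0 lower. The rhomboid protease PARL was at 0.50, the ribosomal proteins MRPL47 and MRPS22 at 0.47 and 0.19, the import factor DNAJC19 at 0.44 and the elongation factor GFM1 at 0.24. Of 11 cytoskeletal, matrix and adhesion proteins, 6 were called higher and 0 lower, with FNDC3B, a membrane protein with fibronectin domains, at 0.53, the semaphorin receptor PLXND1 at 0.18 and SCHIP1, which binds the tumour suppressor merlin, at 0.20. MLF1 at -0.02 and the carboxypeptidase inhibitor LXN at 0.02 had overlapping groups.

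**Figure D4:**
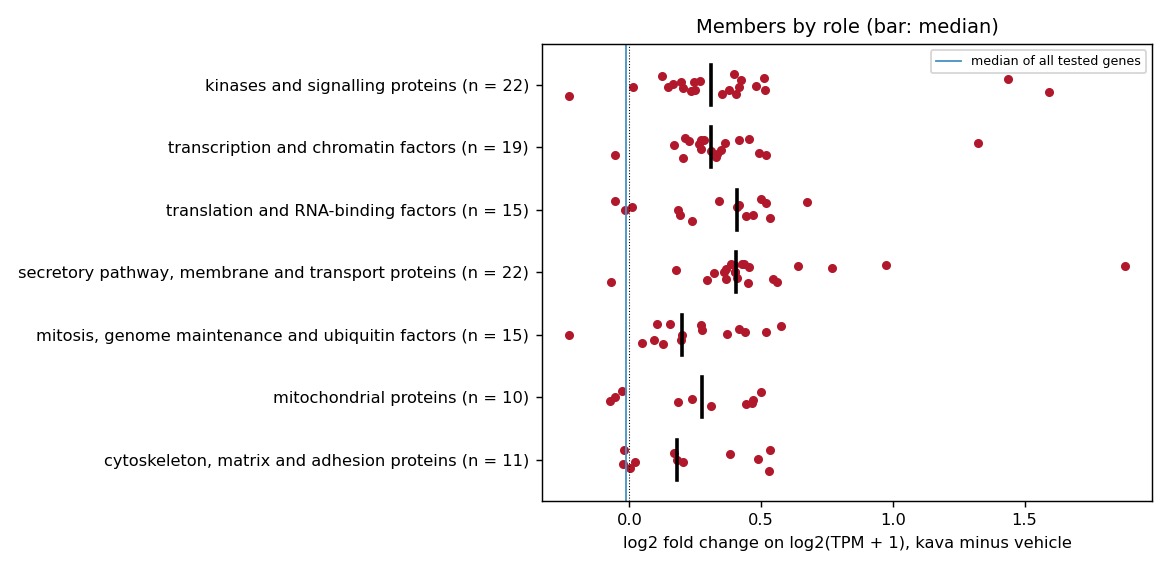
Log2 fold change with kava on log2(TPM + 1) of the members in each of 7 role lists, 1 point per gene, with a black bar at the list's median and a blue line at the median of all tested genes (-0.01). The list medians lie between 0.18 and 0.41, the points of all lists overlap, and every list holds at least 1 member below 0.

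Knockdown of SNRPA1 gave values the rule had not used. Of the 193 members, 177 were tested, with a mean of at least 1 CPM, and 16 were not, among them BCHE. Their median log2 fold change, SNRPA1 siRNA minus control siRNA, was 0.05, and that of all 13772 tested genes was -0.0032. The quasi-likelihood test of edgeR, adjusted over all tested genes, called 5 members higher and 6 lower at an adjusted p under 0.05, beside 4.89% of all tested genes called higher and 7.29% called lower, and neither count of members exceeded that background. At an unadjusted p under 0.05, 46 members and 4237 genes passed. Without control siRNA replicate 1 the counts were 21 higher and 30 lower members, beside 16.1% and 16.9% of all tested genes, and the median was -0.0052. With control siRNA replicate 3 or any 1 of the SNRPA1 siRNA replicates left out, no member and no gene was called by edgeR, while 32 to 38 members and 2887 to 3327 genes passed an unadjusted p under 0.05. DESeq2 called 18 members higher and 16 lower with all libraries.

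Among the members called higher, AMOTL2, a scaffold that binds YAP, stood at 245, 254 and 240 CPM with SNRPA1 siRNA and at 127, 175 and 173 CPM with control siRNA. Its log2 fold change was 0.64 ± 0.129 (SE, edgeR adjusted p = 0.0268), and 0.50 without control siRNA replicate 1. TM4SF1, a tetraspanin-like surface protein, stood at 41.6, 40.1 and 39.5 CPM with SNRPA1 siRNA and at 28.5, 29.4 and 28.2 CPM with control siRNA (0.49 ± 0.0797, edgeR adjusted p = 0.0160). The other 3 were the initiation factor EIF2A at 0.43, SRPRB, a subunit of the signal recognition particle receptor, at 0.41 and ACTL6A at 0.35. In all 5 genes every SNRPA1 siRNA library exceeded every control siRNA library. The genes were called from these same libraries, so that separation adds nothing to the calls. Its share over all tested genes was not computed.

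Among those called lower, PPP2R3A, a regulatory subunit of protein phosphatase 2A, stood at 9.60, 8.24 and 8.44 CPM with SNRPA1 siRNA and at 13.3, 18.5 and 20.4 CPM with control siRNA. Its log2 fold change was -0.99 ± 0.175 (SE, edgeR adjusted p = 0.0197). EIF2B5, the catalytic subunit of the exchange factor eIF2B, stood at 48.1, 52.6 and 49.1 CPM with SNRPA1 siRNA and at 66.3, 64.7 and 66.5 CPM with control siRNA (-0.40 ± 0.0756, edgeR adjusted p = 0.0225). The other 4 were the calmodulin kinase inhibitor CAMK2N2 at -0.71, the Ras-like GTPase MRAS at -0.70, the chloride channel CLCN2 at -0.63 and the inosine diphosphatase NUDT16 at -0.40. In all 6 genes the groups did not overlap, which likewise adds nothing to calls made from the same libraries. The adjusted p of each of these 11 members exceeded 0.05 with at least 1 library left out, reaching 0.101 for TM4SF1 to 0.173 for CAMK2N2.

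**Figure D5:**
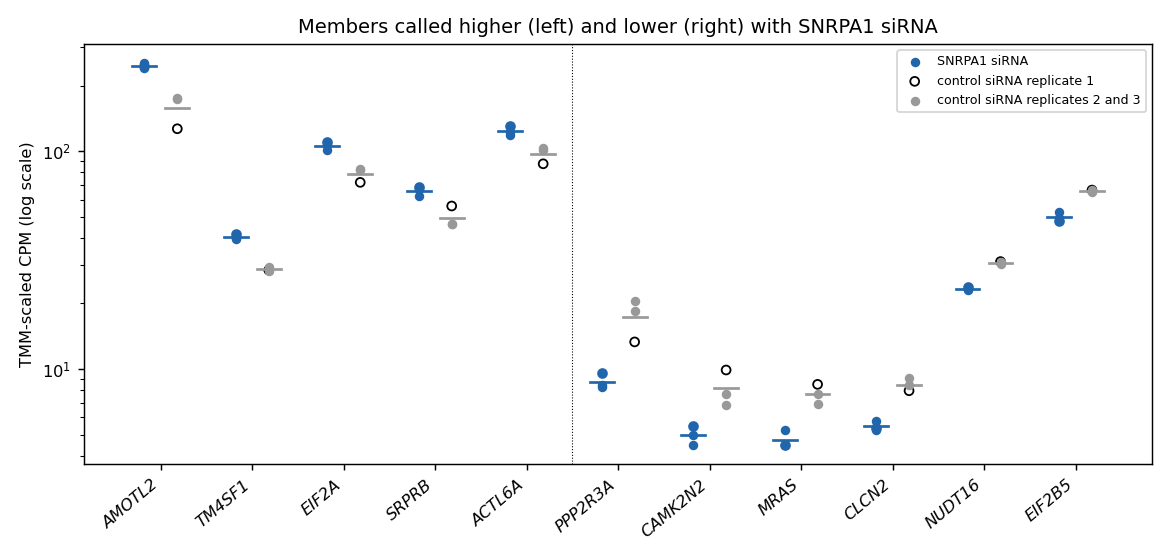
TMM-scaled CPM on a log scale in each SNRPA1 siRNA and control siRNA library for the 5 members called higher (left) and the 6 called lower (right), with a line at each group's mean and control siRNA replicate 1 as an open circle. No SNRPA1 siRNA point of a gene overlaps its control siRNA points, but the genes were called from these same libraries. AMOTL2 and PPP2R3A have control siRNA replicate 1 apart from the other control siRNA points.

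LAMP3, B3GNT5, ETV5, B3GALNT1 and NCEH1, the highest with kava at a mean of at least 5 TPM, were not called in the knockdown. NCEH1 stood at 91.8, 82.0 and 69.96 CPM with SNRPA1 siRNA and at 45.2, 89.3 and 78.3 CPM with control siRNA, the lowest value being control siRNA replicate 1 (0.20, edgeR adjusted p = 0.625). LAMP3 stood at 1.04, 1.51 and 1.09 CPM with SNRPA1 siRNA and at 1.62, 2.51 and 1.84 CPM with control siRNA (-0.71, edgeR adjusted p = 0.124). ETV5 had a log2 fold change of 0.12 (edgeR adjusted p = 0.630) and B3GNT5 one of -0.30 (edgeR adjusted p = 0.468). A p that misses the threshold does not show that these genes were alike in both groups.

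The 2 comparisons share no library and were normalised apart. Across the 177 members tested in both, the changes had a Spearman rho of 0.03 and a Pearson r of -0.20, given as a description over genes that share the libraries of each table. Without the 1 member of largest change in the knockdown, a setting chosen after seeing the data, these were 0.05 and -0.11. Called in both comparisons were 10 members, a count that draws on the kava calls and from which nothing is read. TM4SF1, AMOTL2, EIF2A, SRPRB and ACTL6A were higher in both, beside 1.19% of the 12704 genes tested in both. PPP2R3A, CAMK2N2, CLCN2, NUDT16 and EIF2B5 were higher with kava and lower with SNRPA1 siRNA, beside 1.34% of those genes. Some of these kava calls, among them those of EIF2A, CAMK2N2, CLCN2 and NUDT16, were lost in other settings. MRAS was called in the knockdown and not with kava, a difference that was not tested, and stood at 4.60, 4.76 and 6.57 TPM with kava and at 5.15, 4.38 and 4.46 TPM with vehicle.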

How the data were processed

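RNA-seq values of 12 BEAS-2B libraries in 4 groups of 3 were analysed. The deposited table of the kava and vehicle libraries holds TPM, which the authors scaled so that every library totals 1000000; depth is therefore unknown and no counting error is given. The table's name mentions salmon. The deposited table of the siRNA libraries holds read counts and FPKM per the file headers, and FPKM, scaled by the authors for length and depth, was used for the sums of marker lists only. One FPKM column without a prefix was matched to its library by its ratio to the counts. Build hg38, HISAT2 2.0.4, StringTie 1.3.4d, cutadapt 1.9 and DESeq2 are given by the submitters' processing notes with no table named for any of them. No sample column was left unused (0).

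For kava against vehicle, limma 3.58.1 in R 4.3.3 was fitted to log2(TPM + 1) with eBayes and a mean-variance trend, over genes that averaged 1 TPM or more. For SNRPA1 siRNA against control siRNA, edgeR 4.0.16 (glmQLFit and glmQLFTest, TMM) was fitted to the counts of genes that averaged 1 CPM or more. Tests were two-sided, and p-values were adjusted over all tested genes by the Benjamini-Hochberg method. An edgeR SE was computed as the absolute change divided by the root of F. Both fits were tested on simulated data of fixed spread and without an outlying library, so that test does not cover libraries like control siRNA replicate 1. The edgeR count test and limma were also run under other settings, including DESeq2 1.42.0, no filter and each library left out.

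The members and gene lists were chosen with earlier results of these data known. Named are the genes at each end of the region, the 10 highest and 10 lowest members at a mean of at least 5 TPM (clone, LINC and antisense names left out), the 5 members of highest level, the members called in the knockdown (up to 8 in each direction at a mean of at least 5 CPM) or in both comparisons, and up to 6 members of highest level per role list. One gene that this rule names is not reported here. BCHE, TNFSF10, DGKG, CPA3, PIK3CA, NMD3, NEK11 and CHST2, and the siRNA values of NCEH1, LAMP3, ETV5 and B3GNT5, were added after their values were seen. Replicate numbers did not pair libraries. Same-numbered libraries' deviations correlated at -0.02, -0.11 and 0.09 in the kava table and at -0.38, 0.0015 and -0.19 in the siRNA table.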

Additional observations from a re-analysis of the deposited data

How the results depend on the processing

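The higher level of members with kava kept its direction in every setting run, with a median log2 fold change of 0.22 (pseudocount 5) to 0.32 (pseudocount 0.1). It was 0.31 for members at a mean of at least 5 TPM and 0.31 for protein-coding members, a setting chosen after seeing the data. The stretch was chosen by this contrast in the same libraries, so the kept direction follows from that choice and supports nothing. Members called higher were 93 (without kava replicate 2) to 115 with 1 library left out, beside 1636 to 2207 genes over the whole table, and 96 without a filter on TPM, beside 1994 genes. Members called lower were 2 under quantile normalisation (2315 genes) and 0 to 3 with 1 library left out (1415 to 2058 genes). Windows of 50 and 100 genes gave lowest medians inside the region of 0.21 and 0.35, and highest medians before it of -0.0013 and -0.010.

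The knockdown calls moved with most settings, and the cause was not tested. DESeq2 called 18 members higher and 16 lower (1427 and 1768 genes over the whole table). Without a filter on counts edgeR called 1 and 1 (258 and 411 genes). With 1 library left out it called 0 to 21 members higher and 0 to 30 lower (0 to 2215 and 0 to 2322 genes). Replicate numbers did not pair the libraries. With the replicate block edgeR called 0 members and 0 genes either way in the knockdown, with 38 members and 2919 genes at an unadjusted p under 0.05, and with the block in limma 111 members were higher and 1 lower with kava (2072 and 1882 genes). Of the named members' kava values in other settings, 852 kept their side of the threshold, 82 lost a call, 3 gained one and 0 reversed. Of the knockdown values, 60 kept the call and 72 lost it. With 3 libraries a group, and the TPM depth unknown, small differences are the least certain, above all in members near 1 TPM.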
